A study of Mus musculus with 6 samples.

Results

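The genes described here are the TNF superfamily and the NF-κB pathway genes that carry a family name. They are the rows of the deposited table whose symbols begin with Tnfsf, Tnfrsf, Nfkb or Ikbk, together with Tnf, Traf1 to Traf7, Rel, Rela, Relb, Birc2, Birc3, Tnfaip2, Tnfaip3 and Tnfaip8; Tnfrsf19 and Tnfrsf10b were left out. That gave 58 genes of 24956. The rule uses symbols and no measured value, but it was chosen with earlier results of these data known. RNA-seq was done on intestinal organoids, epithelial cultures grown in organoid medium, all of genotype Apc Min, a germline nonsense mutation in the Wnt pathway inhibitor Apc. The 3 control libraries were compared with 3 libraries treated with DM-aKG, a cell-permeable dimethyl ester of α-ketoglutarate. The submitters call the libraries biological replicates; no source used here states the dose, the time, the control vehicle, or whether replicates came from separate mice or cultures, so p-values measure the spread between these samples, which may be technical.

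Ligands of the TNF superfamily bind receptors of the TNFRSF family on the cell surface. TRAF adaptors and the cIAP ubiquitin ligases (Birc2 and Birc3) carry the signal to the IκB kinases, which lead to the breakdown of IκB proteins and release dimers of NF-κB into the nucleus. In the canonical branch the dimers are mainly of Rela with the product of Nfkb1, and in the non-canonical branch of Relb with the product of Nfkb2. Among the genes that NF-κB is known to induce are its own inhibitors and subunits, which is why Nfkbia and Tnfaip3 are often read as feedback genes. In gut epithelium the pathway is known for roles in cell survival, cell death and inflammation.

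The upstream sequences of NF-κB feedback genes are shown first, because several of these genes were among the members that rose. A κB consensus (its common 10-base degenerate form, searched on both strands, with overlapping matches counted by position) was looked for in the 250 bases before the RefSeq gene starts of GRCm38.p6. Of the 58 members, 46 had such a window, and 9 of these held a match (19.6%), against 4.46% of all 27025 genes with a window. Of the members that were higher in DM-aKG, 5 of 17 with a window held one (Nfkb2, Rel, Nfkbia, Tnfaip3 and Traf3), and of the members that were lower, 0 of 4. Of the members that did not pass, 1 of 6 held a match, and of those not tested 3 of 19. Relb, Nfkb1, Nfkbiz and Tnfrsf11b were among the members without a window. These are few genes, and a link between match and call was not tested. The sequences printed below are those of the 5 higher members with a match, so they were chosen by their call. Over all tested genes the shares were 5.95% of the higher and 4.94% of the lower ones. Nfkbid and Nfkbie held matches as well and did not pass or enter the test, and so did Tnfrsf8 and Tnfrsf9, which lay below the filter. The sequences run 5′ to 3′ on the strand of the gene, with the matches in capitals. For Nfkbia they cover chr12:55492648-55492797 (minus strand), for Tnfaip3 chr10:19015411-19015547 (minus), for Rel chr11:23770971-23771119 (minus), for Traf3 chr12:111166220-111166369 (plus), and for Nfkb2 the 30 bases around the farther of its match sites at chr19:46304689-46304718 (plus), a stretch that lies in an annotated exon of another transcript.
Nfkbia: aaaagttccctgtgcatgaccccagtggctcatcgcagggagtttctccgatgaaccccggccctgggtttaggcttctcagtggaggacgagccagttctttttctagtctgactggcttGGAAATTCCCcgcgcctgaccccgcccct
Tnfaip3: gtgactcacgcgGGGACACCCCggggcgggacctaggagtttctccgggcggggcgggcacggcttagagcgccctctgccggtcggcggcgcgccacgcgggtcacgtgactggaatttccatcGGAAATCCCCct
Rel: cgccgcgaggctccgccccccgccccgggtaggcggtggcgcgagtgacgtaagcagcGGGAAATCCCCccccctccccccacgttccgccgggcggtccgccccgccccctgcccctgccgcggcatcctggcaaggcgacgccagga
Traf3: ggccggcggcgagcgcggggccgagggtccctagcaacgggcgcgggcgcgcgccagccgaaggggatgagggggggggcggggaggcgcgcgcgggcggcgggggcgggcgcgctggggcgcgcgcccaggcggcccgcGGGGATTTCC
Nfkb2: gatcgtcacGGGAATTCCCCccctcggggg
The match began 29 bases before the start in Nfkbia, 12 and 125 bases before it in Tnfaip3, and 39 and 11 bases before it in Nfkb2, of which the nearer is not printed. A match of letters is a description of the sequence, and binding was not measured.

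RPKM relates reads to the length of the transcript and the size of the library, so levels can be compared between genes of different length. A transcript of 1 kb at 1 RPKM stood for an estimated 32.7 to 34.3 reads per library, with a counting error of 17.1% to 17.5%. The cultures carried epithelial markers throughout, and all 8 on the list passed the test, 5 higher and 3 lower. Their summed RPKM was 2662 to 2718 in control and 3483 to 4388 in DM-aKG. The keratin genes Krt8, Krt18 and Krt19 rose, with Krt8 from 831 to 1520 RPKM on average, as did Cdh1 and Vil1, while Epcam fell from 421 to 334 RPKM and Cdx2 from 70.3 to 40.6, and Cdx1 was lower as well. The summed level of 15 immune cell markers was 3.38 to 3.55 RPKM under control conditions and 5.16 to 6.26 in DM-aKG, most of it from Cd14, Cd68 and Itgam, while the pan-leukocyte gene Ptprc reached at most 0.01 RPKM in any library. Of 12 fibroblast and muscle markers the sum was 0.15 to 0.22 and 0.31 to 0.79 RPKM, and of 7 endothelial and glial markers 0.59 to 0.75 and 1.30 to 1.43 RPKM. The part of these marker differences in the results below was not tested. In bulk RNA, fewer cells of a type and less RNA per cell cannot be told apart.

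Of the 58 members, 36 reached a mean of 1 RPKM over the 6 libraries and were tested, with limma on log2(RPKM + 0.5) and p-values adjusted over all 10852 genes tested. At an adjusted p under 0.05, which 55.6% of all tested genes passed, 26 members were called. Higher in DM-aKG were 21 (58.3%), against 30.9% of all tested genes, and lower 5 (13.9%), against 24.7%; 10 did not pass. By at least 0.5 on the log2 scale, 11 members were higher, against 8.97% of all tested genes, and 2 were lower, against 6.68%. The median log2 fold change was 0.32 over the tested members and 0.02 over all tested genes. Tnfrsf11b passed the filter only through its DM-aKG level and Tnfsf10 only through its control level, so the counts describe the members that passed. All 26 called members had groups that did not overlap; of the tested members, 22 lay above the controls in every DM-aKG library (35.3% of all tested genes) and 7 below (28.9%). By role, 0 of 3 tested ligand genes and 8 of 10 tested receptor genes were higher.

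**Figure D1:**
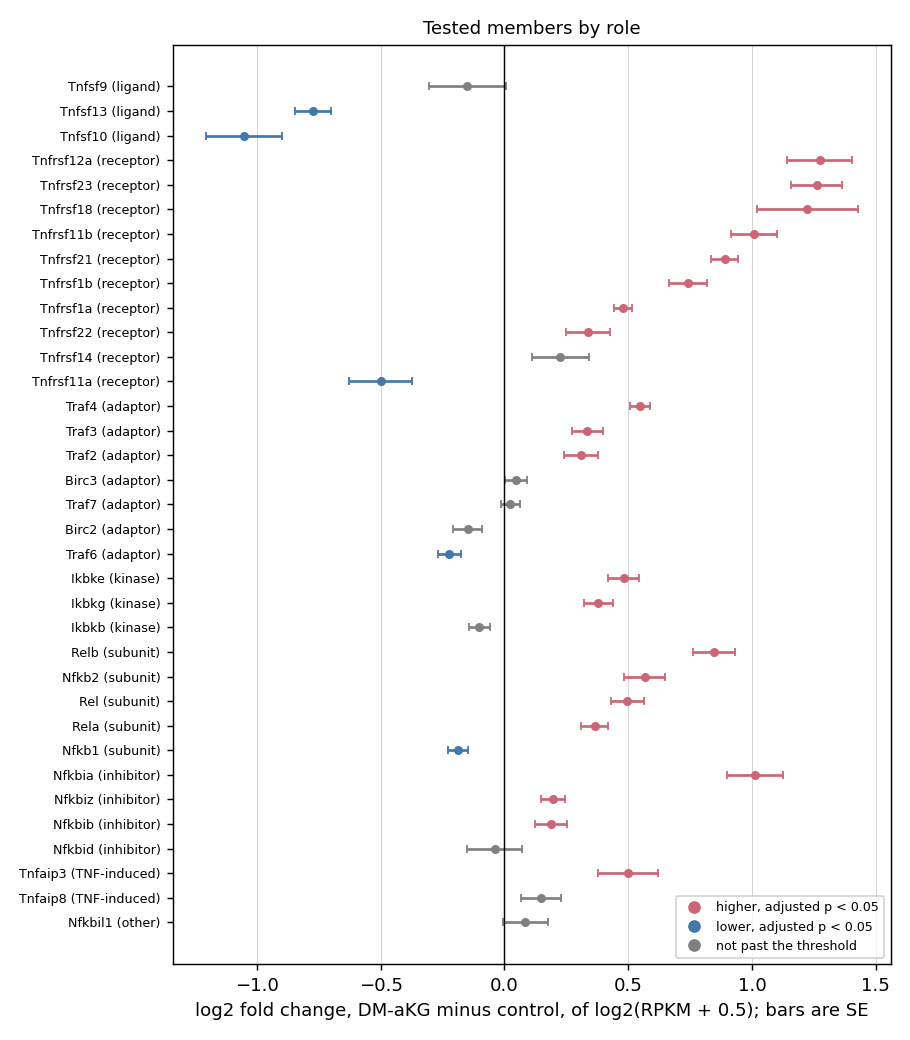
Log2 fold change (DM-aKG minus control, of log2(RPKM + 0.5)) with its SE for 35 of the 36 tested members, ordered by role; red marks members called higher, blue lower and grey not past the threshold. Of the 10 receptors 8 are red, of the 3 ligands 2 are blue, and the subunits are red except Nfkb1.

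The organoids held little RNA of TNF superfamily ligands. Of 3 tested ligand genes 2 were lower with DM-aKG (66.7%, against 24.7% of all tested genes). These are few genes, and 1 of the 2, Tnfsf10, passed the filter only through its control level. Tnfsf13 encodes APRIL, a B cell survival factor, and was the most abundant ligand gene, at 7.56, 8.47 and 7.97 RPKM in the controls and 4.28, 4.92 and 4.23 in DM-aKG. It fell by 0.77 ± 0.07 on the log2 scale (SE; adjusted p = 1.20e-04 by limma). Tnfsf10 encodes TRAIL, a ligand that can trigger apoptosis, and stood at 1.84, 1.91 and 1.85 RPKM in control against 0.95, 0.45 and 0.58 in DM-aKG. The controls lay within a narrow band, all DM-aKG libraries were below it, and Tnfsf10 fell by 1.05 ± 0.15 (adjusted p = 9.70e-04 by limma). Tnfsf13 lies 466 bases from Tnfsf12 on chromosome 11 and overlaps the joint gene Tnfsfm13; the counting of reads there is not known, so the split among these genes, with Tnfsf12 at 0 to 0.11 RPKM, is uncertain. Tnfsf9, a costimulatory ligand gene, was at 2.21 ± 0.652 RPKM in the controls and 1.90 ± 0.0755 in DM-aKG (mean ± SD, n = 3) and did not pass (adjusted p = 0.438 by limma); control replicate 2, at 2.95 RPKM, was above all others.

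Tnf itself and Tnfsf4 were below the filter and yet apart between the groups. Tnf, the inflammatory cytokine that names the family, was at 0.18, 0.11 and 0.17 RPKM under control conditions and 0.58, 0.96 and 0.70 in DM-aKG. Tnfsf4, a costimulatory ligand of T cells, was at 0.11, 0.07 and 0.09 RPKM in the controls and 0.76, 0.74 and 0.99 in DM-aKG. Every DM-aKG library was above every control for both genes, the ratios of the means were 4.87 for Tnf and 9.22 for Tnfsf4, and all these levels were under 1 RPKM. In the alternative fit without a filter both were higher (adjusted p = 0.00208 by limma for Tnf and 3.37e-04 for Tnfsf4). Tnfsf13b, which encodes BAFF, went the other way, from 0.893 ± 0.0737 RPKM in control to 0.650 ± 0.0346 in DM-aKG (adjusted p = 0.0258 by limma without a filter). Tnfsf11, the RANK ligand gene, and Tnfsf8 were listed at 0 in every library, and Tnfsf14, Tnfsf15, Tnfsf18 and Tnfsfm13 did not exceed 0.18 RPKM. The summed RPKM of the 13 ligand genes was 12.37 to 14.77 in control and 9.12 to 9.90 in DM-aKG.

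Of 10 tested receptor genes 8 were higher (80%, against 30.9% of all tested genes) and 1 lower (10%, against 24.7%). The 8 include Tnfrsf11b, which passed the filter only through its DM-aKG level, so the share describes the genes that passed. The summed RPKM of the 18 receptor genes was 75.87 to 78.79 in control and 129.22 to 159.00 in DM-aKG, and Tnfrsf12a and Tnfrsf1a made up most of it in both. Tnfrsf12a, the receptor for the ligand TWEAK, stood at 26.79, 25.11 and 25.98 RPKM in control and at 49.60, 70.73 and 72.66 in DM-aKG. The groups were far apart, with DM-aKG replicate 1 between the controls and the other treated libraries, and the log2 fold change was 1.27 ± 0.13 (adjusted p = 2.02e-04 by limma). Its share of receptor RPKM went from 33.1% to 34.0% in control to 38.4% to 45.8% in DM-aKG. The gene of its ligand, Tnfsf12, was listed at 0 to 0.11 RPKM. That level is uncertain, because the split of reads with Tnfsf13 and Tnfsfm13 is not known.

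Tnfrsf1a, the broadly expressed receptor for TNF, rose with little spread among libraries. It was at 28.33, 28.51 and 28.55 RPKM under control conditions and 40.31, 39.22 and 40.13 in DM-aKG (log2 fold change 0.48 ± 0.04; adjusted p = 4.82e-05 by limma). Among the receptor genes that match the symbol rule, Tnfrsf1a was the most abundant in the controls, ahead of Tnfrsf12a. In DM-aKG the order of these genes was turned in all 3 libraries. Ltbr, a TNF receptor family gene outside the rule, stood above Tnfrsf1a in both groups. It rose from 42.3 ± 1.45 to 48.1 ± 1.75 RPKM (adjusted p = 0.0102 by limma). Tnfrsf1b, the second TNF receptor and a TRAF-binding receptor without a death domain, was far scarcer, at 2.68, 2.64 and 2.57 RPKM in the controls and 4.24, 4.90 and 5.09 in DM-aKG. It rose by 0.74 ± 0.08 on the log2 scale (adjusted p = 1.87e-04 by limma).

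**Figure D2:**
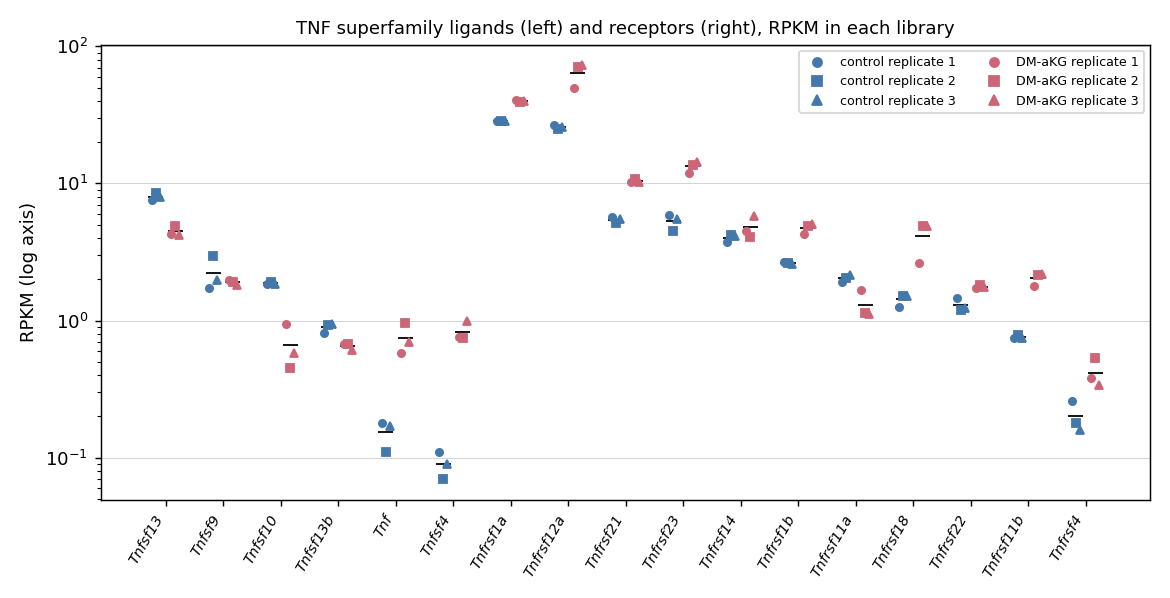
RPKM (log axis) in each library for the ligand genes (left) and receptor genes (right) that were above 0 in every library and reached 0.5 RPKM in at least 1; blue points are controls, red points DM-aKG, marker shapes are replicates and black bars are group means. Tnfrsf12a runs from 25.11 to 26.79 RPKM under control conditions and 49.60 to 72.66 in DM-aKG, while Tnfsf10 and Tnfsf13 lie lower in every DM-aKG library.

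The death domain receptor gene Tnfrsf21 was at 5.69, 5.11 and 5.47 RPKM in the controls and 10.24, 10.84 and 10.31 in DM-aKG. The DM-aKG libraries were tightly grouped, and the log2 fold change was 0.89 ± 0.05 (adjusted p = 2.07e-05 by limma). Tnfrsf23, one of the mouse decoy receptors for TRAIL, was at 5.85, 4.48 and 5.50 RPKM under control conditions and 11.89, 13.72 and 14.33 in DM-aKG (log2 fold change 1.26 ± 0.10; adjusted p = 6.97e-05 by limma). Its neighbour and close relative Tnfrsf22, 16.1 kb away on chromosome 7, rose from 1.29 ± 0.137 to 1.76 ± 0.0513 RPKM (log2 fold change 0.34 ± 0.09; adjusted p = 0.0130 by limma), a call that was lost without control replicate 3 (adjusted p = 0.0524). The ratio of Tnfrsf23 to Tnfrsf22 was 3.73 to 4.47 in control and 6.91 to 8.19 in DM-aKG. How reads shared by these related genes were assigned is not known, so their levels are uncertain. Tnfrsf26, the next gene of the cluster, did not exceed 0.02 RPKM.

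Tnfrsf18, which encodes the costimulatory receptor GITR, was at 1.26, 1.5 and 1.51 RPKM in the controls and 2.61, 4.88 and 4.88 in DM-aKG. DM-aKG replicate 1 was again the nearest to the controls, and the log2 fold change was 1.22 ± 0.20 (adjusted p = 0.00176 by limma). Its neighbour Tnfrsf4, 9.6 kb away on chromosome 4, was below the filter, at 0.26, 0.18 and 0.16 RPKM under control conditions and 0.38, 0.53 and 0.34 in DM-aKG. It encodes the receptor of the Tnfsf4 product, and the groups did not overlap for either gene of the pair.

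The genes of RANK and of osteoprotegerin, its soluble decoy partner that captures RANK ligand, moved in opposite directions. Tnfrsf11b, the osteoprotegerin gene, was at 0.75, 0.78 and 0.75 RPKM in the controls and 1.8, 2.15 and 2.17 in DM-aKG, and rose by 1.01 ± 0.09 on the log2 scale (adjusted p = 1.28e-04 by limma). Tnfrsf11a, the RANK gene, was at 1.90, 2.04 and 2.15 RPKM under control conditions and 1.67, 1.13 and 1.12 in DM-aKG, and fell by 0.50 ± 0.13 on that scale (adjusted p = 0.0118 by limma). DM-aKG replicate 1 was the treated library nearest to the controls. Over the alternative fits the log2 fold change of Tnfrsf11a was -0.6375 to -0.4012. The adjusted p by limma ran from 4.05e-04 to 0.0485, the highest without control replicate 3. Tnfrsf14, which encodes HVEM, did not pass, at 4.0 ± 0.249 RPKM in the controls and 4.81 ± 0.906 in DM-aKG (adjusted p = 0.132 by limma), with DM-aKG replicate 2 inside the control range. Several receptors known mainly from lymphocytes were scarce: Tnfrsf13b, Tnfrsf13c, Tnfrsf17, Tnfrsf8, Tnfrsf9 and Tnfrsf25 did not exceed 0.14 RPKM in any library. The costimulatory receptor genes Tnfrsf18 and Tnfrsf4 reached more, up to 4.88 and 0.53 RPKM in DM-aKG.

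Of 7 tested adaptor genes 3 were higher (42.9%, against 30.9% of all tested genes) and 1 lower (14.3%, against 24.7%), shares that rest on few genes and are not read as a result about adaptors. Traf4, a TRAF family member expressed in epithelia, was at 20.36, 21.17 and 20.72 RPKM under control conditions and 29.88, 30.71 and 31.07 in DM-aKG (log2 fold change 0.55 ± 0.04; adjusted p = 3.97e-05 by limma). Traf2 and Traf3, which form the complex that holds the non-canonical kinase NIK (Map3k14) in check, rose more modestly. Traf2 was at 5.10, 4.98 and 4.54 RPKM in the controls and 5.68, 6.27 and 6.52 in DM-aKG (log2 fold change 0.31 ± 0.07; adjusted p = 0.00680 by limma). Traf3 rose from 4.58 ± 0.137 to 5.92 ± 0.433 RPKM (log2 fold change 0.34 ± 0.06; adjusted p = 0.00316 by limma).

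The cIAP genes Birc2 and Birc3, partners in the same complex and 11.6 kb apart on chromosome 9, did not pass. Birc2 was at 7.17, 6.64 and 6.63 RPKM under control conditions and 6.35, 6.21 and 5.75 in DM-aKG (adjusted p = 0.0626 by limma), with all DM-aKG libraries below the controls. Birc3 was at 6.76, 6.78 and 6.91 RPKM in the controls and 7.04, 6.99 and 7.12 in DM-aKG (log2 fold change 0.05 ± 0.04; adjusted p = 0.411 by limma). Birc3 is widely known as an NF-κB target, and here its whole span over the 6 libraries was 6.76 to 7.12 RPKM. Traf6, the adaptor of Toll-like and interleukin-1 receptors, was at 9.07, 9.20 and 9.14 RPKM under control conditions and 8.03, 7.49 and 7.76 in DM-aKG, and fell by 0.22 ± 0.05 on the log2 scale (adjusted p = 0.00460 by limma). Traf7 was at 31.5 ± 0.647 RPKM in the controls and 32.0 ± 0.479 in DM-aKG (adjusted p = 0.623 by limma), Traf5 lay below the filter at 0.60 to 1.12 RPKM, and Traf1, often used as a readout of NF-κB in lymphocytes, was listed at 0 in every library.

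Ikbkb, the catalytic kinase of the canonical branch, was at 9.86, 9.43 and 9.87 RPKM under control conditions and 9.04, 8.95 and 9.09 in DM-aKG and did not pass (adjusted p = 0.0803 by limma). Ikbke, a related kinase that also acts in antiviral signalling, went up from 7.62, 6.71 and 6.85 RPKM to 10.54, 9.53 and 10.09 (log2 fold change 0.48 ± 0.06; adjusted p = 5.77e-04 by limma). Ikbkg, which encodes the regulatory subunit NEMO, was at 7.08, 6.38 and 6.58 RPKM in the controls and 8.33, 9.16 and 9.03 in DM-aKG (log2 fold change 0.38 ± 0.06; adjusted p = 0.00130 by limma). Ikbkg overlaps G6pdx on the opposite strand of chromosome X, and whether reads were counted by strand is not given. G6pdx, a gene of the pentose phosphate pathway, rose from 31.7 ± 0.391 to 45.5 ± 0.562 RPKM, and the ratio of Ikbkg to G6pdx was 0.204 to 0.220 in control and 0.185 to 0.199 in DM-aKG. The part of G6pdx reads in the value of Ikbkg was not tested. The remaining kinase gene of the complex, Chuk, lies outside the symbol rule; it rose from 23.1 ± 0.840 to 29.9 ± 0.644 RPKM (adjusted p = 3.61e-04 by limma). Nfkbil1 carries a family symbol without a settled role in the core pathway. It was at 6.38 ± 0.373 RPKM in the controls and 6.82 ± 0.851 in DM-aKG and did not pass (adjusted p = 0.457 by limma).

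All 5 genes of NF-κB subunits passed the test, as did 55.6% of all tested genes; 4 were higher (80%, against 30.9% of all tested genes) and Nfkb1 lower (20%, against 24.7%). Relb, the transactivating partner of the non-canonical branch, was at 7.97, 8.06 and 7.80 RPKM in the controls and 12.99, 14.54 and 16.77 in DM-aKG (log2 fold change 0.85 ± 0.08; adjusted p = 1.68e-04 by limma). Nfkb2, its precursor partner, was at 9.84, 10.47 and 9.66 RPKM under control conditions and 13.15, 15.68 and 16.43 in DM-aKG (log2 fold change 0.57 ± 0.08; adjusted p = 9.07e-04 by limma). Nfkb2 overlaps Psd on the opposite strand, which was at 0.64 to 0.69 RPKM in the controls and 0.63 to 0.95 in DM-aKG. Relb and Nfkb2 were lowest among the treated libraries in DM-aKG replicate 1, which still lay above every control.

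The canonical partners diverged. Rela was at 17.10, 15.44 and 16.28 RPKM under control conditions and 20.13, 21.07 and 22.11 in DM-aKG (log2 fold change 0.37 ± 0.05; adjusted p = 0.00103 by limma). Nfkb1 was at 18.14, 18.35 and 17.65 RPKM in the controls and 16.17, 15.55 and 15.67 in DM-aKG, and fell by 0.19 ± 0.04 on the log2 scale (adjusted p = 0.00576 by limma). Rel, a subunit best known from lymphocytes, was the scarcest, at 1.70, 1.69 and 1.67 RPKM under control conditions and 2.65, 2.56 and 2.55 in DM-aKG (log2 fold change 0.50 ± 0.07; adjusted p = 6.42e-04 by limma).

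**Figure D3:**
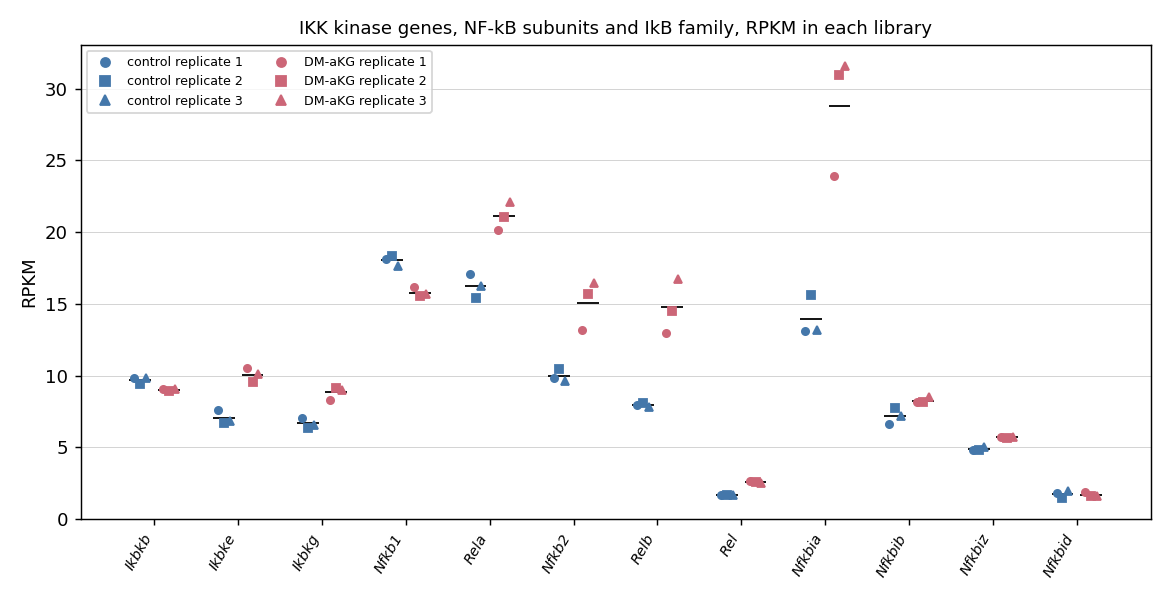
RPKM (linear axis from 0) in each library for the tested genes of IκB kinases, NF-κB subunits and IκB proteins; blue points are controls, red points DM-aKG, marker shapes are replicates and black bars are group means. Nfkb1 is lower in the 3 DM-aKG libraries (15.55 to 16.17 RPKM) than in the controls (17.65 to 18.35), and Nfkbia is higher, at 23.93 to 31.57 RPKM against 13.12 to 15.64.

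Within each library, Nfkb2 and Relb made up more of the subunit RPKM in DM-aKG than in control. Nfkb1 made up 33.1% to 34.0% of the summed RPKM of the 5 subunit genes in control and 21.3% to 24.8% in DM-aKG, and Relb 14.6% to 14.9% and 20.0% to 22.8%. The share of Rela overlapped between the groups, at 28.6% to 31.2% and 30.1% to 30.9%. The ratio of Nfkb2 to Nfkb1 was 0.542 to 0.571 in control and 0.813, 1.01 and 1.05 with DM-aKG, and that of Relb to Rela 0.466 to 0.522 and 0.645 to 0.758. These ratios do not depend on the scaling of a library; they were formed after the values were seen and are given without a test.

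**Figure D4:**
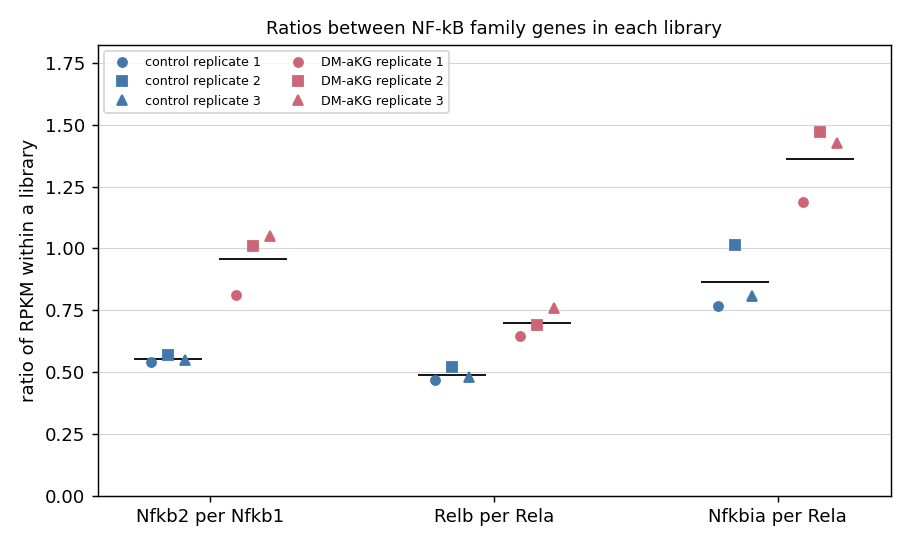
Ratio of RPKM within each library (linear axis from 0) for Nfkb2 per Nfkb1, Relb per Rela and Nfkbia per Rela; blue points are controls, red points DM-aKG, marker shapes are replicates and black bars are group means. For the 3 ratios every DM-aKG library lies above every control, for Nfkb2 per Nfkb1 at 0.813 to 1.05 against 0.542 to 0.571.

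Nfkbia, which encodes IκBα, the inhibitor that NF-κB induces to shut itself off, had the largest change among the tested members that are neither ligand nor receptor genes. It was at 13.12, 15.64 and 13.15 RPKM in the controls and 23.93, 30.98 and 31.57 in DM-aKG (log2 fold change 1.01 ± 0.11; adjusted p = 2.85e-04 by limma). Control replicate 2 was the highest control and DM-aKG replicate 1 the lowest treated library. Over the alternative fits the log2 fold change of Nfkbia was 0.943 to 1.22. The highest value was that without both libraries, a step that can only raise it. The ratio of Nfkbia to Rela was 0.767 to 1.01 in control and 1.19 to 1.47 in DM-aKG. Tnfaip3, a ubiquitin-editing enzyme that ends TNF signalling, was at 2.76, 3.32 and 2.33 RPKM under control conditions and 3.65, 4.30 and 4.51 in DM-aKG, with a log2 fold change of 0.50 ± 0.12 (adjusted p = 0.00916 by limma).

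Of the other IκB genes, 2 passed with smaller changes. Nfkbiz, an atypical nuclear IκB, was at 4.82, 4.85 and 5.06 RPKM in the controls and 5.69, 5.66 and 5.74 in DM-aKG (log2 fold change 0.20 ± 0.05; adjusted p = 0.0110 by limma). Nfkbib rose from 7.20 ± 0.575 to 8.26 ± 0.200 RPKM (adjusted p = 0.0349 by limma; it overlaps Sirt2 on the opposite strand), a call that was lost under 7 of 16 alternatives, with adjusted p from 0.00604 to 0.107 over all of them. Nfkbid, at 1.75 ± 0.269 and 1.68 ± 0.154 RPKM, did not pass, and Nfkbie stayed below the filter, at 0.82 to 1.03 RPKM. Of the remaining TNF-induced genes, Tnfaip8 did not pass, at 1.96 ± 0.128 and 2.23 ± 0.172 RPKM (adjusted p = 0.162 by limma). Tnfaip2 lay below the filter and was at 1.07, 1.31 and 1.03 RPKM under control conditions and 0.44, 0.61 and 0.70 in DM-aKG, opposite to Tnfaip3.

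DM-aKG replicate 1 was the treated library nearest to the controls in many of these genes. Of the 21 higher members, whose groups do not overlap, it was the lowest treated library in 17 (81.0%), against 60.5% of all 3323 genes called higher without overlap. Exceptions were Tnfrsf1a, Ikbke, Rel and Nfkbiz. Without that library 21 members were higher and 6 lower, the added one being Birc2. Over all 10852 tested genes that fit called 3674 higher and 3188 lower, against 3354 and 2679 with all libraries.

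Further genes of the pathway lie outside the symbol rule. They were listed with earlier results of these data known, so their counts describe the list and give no independent support. Of 70 listed genes of TNF receptor and NF-κB signalling, 49 were tested, 25 were higher (51.0%, against 30.9% of all tested genes) and 5 lower (10.2%, against 24.7%), with a median log2 fold change of 0.16. The highest rise was of Eda2r, a TNF receptor family gene and known p53 target, from 2.15 ± 0.0950 to 7.22 ± 0.348 RPKM. Ripk3, a kinase of necroptosis, a regulated death that TNF can trigger, was at 23.36, 23.11 and 21.30 RPKM in the controls and 47.32, 50.61 and 50.62 in DM-aKG (log2 fold change 1.12 ± 0.05; adjusted p = 5.29e-06 by limma), and its substrate gene Mlkl rose from 1.22 ± 0.171 to 2.96 ± 0.172 RPKM. Casp8, the caspase that death receptors activate, rose from 25.8 ± 1.77 to 42.7 ± 9.42 RPKM, with DM-aKG replicate 1 at 31.87, and the death receptor gene Fas from 1.64 ± 0.220 to 2.79 ± 0.422 RPKM. Bcl3, an atypical IκB that binds the Nfkb1 and Nfkb2 products, rose from 6.85 ± 0.431 to 10.4 ± 1.63 RPKM.

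The 5 that were lower were Tifa, Btrc, Otulin, Ripk1 and Azi2. Ripk1, a kinase of the TNF receptor complex that also acts upstream of Ripk3 in necroptosis, fell from 9.98 ± 0.296 to 8.53 ± 0.329 RPKM while Ripk3 rose. Tifa, an adaptor that acts with Traf6, fell from 1.93 ± 0.0737 to 0.880 ± 0.242 RPKM and passed the filter only through its control level, and Otulin, a deubiquitinase of linear chains, from 12 ± 1.33 to 9.86 ± 0.0351. Btrc, part of the ubiquitin ligase that marks phosphorylated IκB, and Azi2 lost their calls under 7 and 5 alternatives.

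**Figure D5:**
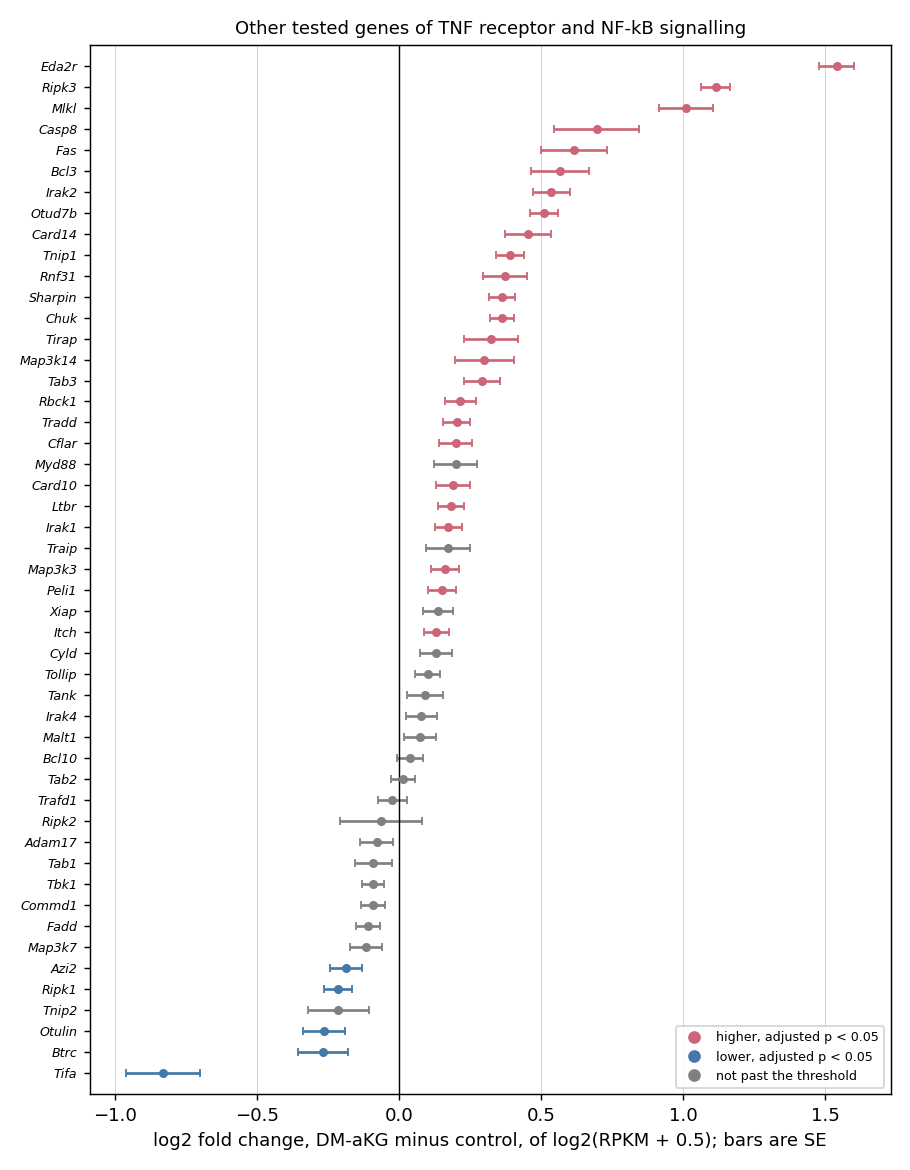
Log2 fold change (DM-aKG minus control, of log2(RPKM + 0.5)) with its SE for the 49 tested genes of the pathway outside the symbol rule, in order of size; red marks genes called higher, blue lower and grey not past the threshold. Eda2r (1.54), Ripk3 (1.12) and Mlkl (1.01) have the largest rises and Tifa (-0.83) the largest fall.

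Genes known as NF-κB targets in epithelia were read separately. This list too was chosen with earlier results of these data known, so its shares are a description and no independent support. Of 50 listed, 20 were tested; 11 were higher (55.0%, against 30.9%), 2 lower (10%, against 24.7%), and the median log2 fold change was 0.39. Ier3, an early response gene, was at 12.21, 17.15 and 10.45 RPKM under control conditions and 30.47, 37.89 and 39.12 in DM-aKG (log2 fold change 1.42 ± 0.17; adjusted p = 3.77e-04 by limma). The chemokine gene Cxcl16 rose from 6.68 ± 1.06 to 17.7 ± 0.650 RPKM, the survival gene Bcl2l1 from 11.8 ± 0.437 to 21 ± 0.940, the oxidase gene Duox2 from 0.847 ± 0.180 to 2.80 ± 0.125, the peptide transporter gene Tap1 from 3.26 ± 0.236 to 5.72 ± 0.636, and Cebpb from 11.8 ± 1.32 to 18.9 ± 2.02. Duox2 passed the filter only through its DM-aKG level. Several of these genes are known to answer to other factors as well. Pigr, the transporter of secretory antibodies and also an NF-κB target, fell from 226 ± 3.17 to 128 ± 19.0 RPKM (adjusted p = 2.83e-04 by limma), and the chemokine gene Ccl28 fell from 12.8 ± 1.01 to 9.30 ± 1.86, a call lost without control replicate 2, DM-aKG replicate 2 or DM-aKG replicate 3 (adjusted p = 0.0533 to 0.0608).

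Another 30 targets lay below the filter. Of these, Il6, Ccl2, Vcam1, Lcn2, Saa1 and Sele were listed at 0 in all 6 libraries. In 11 of the 30 every DM-aKG library was above every control, against 12.7% of all genes below the filter with a value above 0, and in 1, Cd83, below, against 9.17%. The 30 include the 6 genes at 0 throughout, whereas the shares of all genes leave such genes out. Cxcl1, a neutrophil chemokine, was at 0.0733 ± 0.0751 RPKM in the controls and 0.480 ± 0.121 in DM-aKG, Nos2 at 0.0733 ± 0.0208 and 0.520 ± 0.145, and Icam1 at 0.167 ± 0.0306 and 0.427 ± 0.170. Cxcl1, Nos2 and Icam1 stayed under 1 RPKM in every library, whereas Duoxa2, the maturation factor of Duox2 and also among the 11, was at 0.42 to 0.47 RPKM in control and 0.90 to 1.44 in DM-aKG. Among the members themselves, 22 were below the filter, of which 3 were at 0 throughout. In 6 all DM-aKG libraries lay above the controls (Tnf, Tnfsf4, Tnfsf14, Tnfrsf4, Tnfrsf9 and Tnfrsf13c), and in 2 below (Tnfsf13b and Tnfaip2). Over all genes below the filter with a value above 0, the shares above and below were 12.7% and 9.17%.

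On GRCm38, the assembly that mm10 names, each of the 58 members matched a single annotated protein-coding gene. Nfkbia lies on chromosome 12, 55489410 to 55492647 (minus strand), Nfkb2 on chromosome 19, 46304320 to 46312385 (plus), Relb on chromosome 7, 19606217 to 19629438 (minus), and Tnfrsf12a on chromosome 17, 23675445 to 23677468 (minus). Members that lie near each other did not all move alike. Tnfrsf22 and Tnfrsf23 were both higher. Of Birc2 and Birc3 neither passed, with every DM-aKG library below the controls for Birc2 and above them for Birc3. Tnf was apart between the groups while Nfkbil1, 18.2 kb away on chromosome 17, overlapped.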

How the data were processed

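RNA of 6 organoid libraries was sequenced, 3 control and 3 DM-aKG. The tools CASAVA 1.8, HISAT2 2.0.4 and Partek and the build mm10 are named in the submitters' processing notes; no source used here states their roles, the gene annotation, strand or the treatment of shared reads. RPKM was deposited by the authors with 2 decimals for 24956 genes. RPKM carries library scaling by the authors, so abundant genes that change shift others slightly. Depth was estimated from genes of at most 150 bases, whose lowest values are whole reads.

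Genes with a mean of at least 1 RPKM were compared as log2(RPKM + 0.5), which understates the change of low genes, with limma 3.58.1 in R 4.3.3 (mean-variance trend, two-sided, Benjamini-Hochberg over all tested genes, calls at an adjusted p under 0.05). The procedure was tested on simulated data. Full values are given for members called with a log2 change of at least 0.5 and for core genes of the pathway, the largest 6 rises and 6 falls of each other list, and other members by summary. Members below the filter are named where a library reached 0.5 RPKM or all were at 0. Other members below it are named only for an upper limit, a neighbouring gene, a κB match or groups that did not overlap. Ratios, neighbours, and further genes were chosen after their values were seen. The members and lists were chosen with earlier results of these data known. Alternatives covered the pseudocount, filter, scaling, variance model, replicate block, fold threshold and left-out libraries. Positions are from GENCODE M21 and upstream sequences from RefSeq. Computations also used Python 3.11.15. Of the tested members, 1 that did not pass is included in the counts and is not reported singly here.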

Additional observations from a re-analysis of the deposited data

How the results depend on the processing

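Of 850 values for 54 named genes, 814 kept direction and side of the threshold, 23 lost and 7 gained a call, and 6 turned in sign, all of genes that did not pass. These were the log2 fold change of Tnfsf9 without control replicate 2 (0.0379; -0.2801 to 0.0379 with 1 library left out) and without that library and DM-aKG replicate 1 (0.0170), the log2 fold change of Traf7 with median centring (-0.0247) and quantile normalization (-0.0317), that of Birc3 with median centring (-0.0028), and the log2 fold change of Nfkbid without control replicate 3 (-0.1382 to 0.0323 with 1 library left out). The cause was not tested. Requiring a 1.5-fold change as well left 8 members higher and 2 lower, 5 other pathway genes higher and 1 lower, and 7 targets higher and 1 lower. The share of all tested genes at that fold change was not computed. With a filter at 3 RPKM, which tests fewer genes, 3 members and 3 other pathway genes were lower. Over all genes, 2268 of the 9273 tested with that filter were lower. Without a filter 26 members were higher, 8 other pathway genes lower and 20 targets higher. Over all genes that fit called 3783 of 18343 higher and 2832 lower. Median centring and quantile normalization each gave 9 lower pathway genes, and the fit without both control replicate 2 and DM-aKG replicate 1 gave 8. Lower calls rose over all genes as well, from 2679 to 3340 with median centring, 3190 with quantile normalization and 3279 without both libraries. With 1 library left out, 19 to 21 members were higher and 5 to 6 lower, 18 to 26 other pathway genes higher and 3 to 8 lower, and 9 to 13 targets higher and 1 to 2 lower. Of all 10852 tested genes, these fits called 2689 to 3674 higher and 2059 to 3188 lower. Over all genes median centring turned the split of calls from 3354 higher and 2679 lower to 2790 and 3340, and among members to 20 and 7. Replicate numbers did not pair the libraries (same-numbered correlations of -0.08, -0.11 and 0.01); with the replicate block 21 members were higher and 5 lower, 23 other pathway genes higher and 4 lower, and 13 targets higher and 2 lower. Of all 10852 tested genes, the fit with the replicate block called 3206 higher and 2542 lower. Depth limits members under about 0.1 RPKM to a few reads.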
